A study of Mus musculus with 9 samples.

Results

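Genes of the contractile apparatus of striated muscle and of its calcium handling were followed in the urogenital sinus of C57BL/6 mice on 9 Affymetrix arrays. The set was a list of 42 gene symbols, chosen by name, each represented by its brightest probe set (by mean log2 value) among those annotated to that symbol alone. Of the 42, 41 had such a probe set (Xirp2 did not), out of 18194 genes in all. Of these 41, 36 passed the filter on low values and were tested among 13400 genes, while Mybpc2, Xirp1, Cacna1s, Trdn and Mb lay below it. The filter stood at a mean log2 value of 5.54. Pvalb, at 5.60, lay just inside it and Cacna1s, at 5.49, just outside. Since mean signal over the 9 arrays chose the probe sets, levels are given as a description and were not tested.

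Pregnant females received corn oil (control), bisphenol A (BPA, a weakly estrogenic plastics monomer) at 20 µg/kg/day in that oil or diethylstilbestrol (DES, an artificial estrogen) at 0.2 µg/kg/day from embryonic day 13 to 16. The sinus was isolated from male and female offspring at embryonic days 17 and 18 (E17 and E18) and on the day of birth (P0), after the bladder, urethra and genital ducts had been dissected away. Each of the 3 agents was hybridised once at each of the 3 ages, so the agents at one age, or the ages of one agent, are the only repeats. The labels do not give the sex or the number of the animals behind an array, and they name no striated muscle in the tissue. Because the RNA came from bulk tissue, fewer muscle cells and less RNA per muscle cell cannot be told apart.

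In striated muscle, myosin thick filaments pull on actin thin filaments inside the sarcomere, a unit bounded by Z discs and crossed at its centre by the M band. Contraction starts when the voltage sensor of the transverse tubule opens the ryanodine receptor of the sarcoplasmic reticulum, and the released calcium binds troponin on the thin filament. Calcium is then pumped back by the SERCA ATPase and stored on calsequestrin. Many of these proteins have fast and slow, or skeletal and cardiac, relatives whose balance shifts in late fetal life. A ring of striated muscle, the urethral sphincter, lies next to the derivatives of the urogenital sinus.

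Muscle genes are driven by the myogenic factors, which bind E-boxes, and by MEF2 and serum response factor, which bind the MEF2 and CArG motifs. The promoter table, from RefSeq on build GRCm38.p6, held 35 promoters of 29 of the 41 genes, each with 250 bases before and 50 bases after the start site. The E-box CAGCTG, which reads the same on both strands, was present in 17 of these 35 promoters (48.6%), belonging to 15 genes, against 16.3% of all 32851 promoters of that length. The E-box CAGGTG, searched on both strands, was in 25.7% against 20.2%, and the M-CAT motif CATTCC, searched on both strands, in 22.9% against 14.7%. The MEF2 motif was in 14.3% against 3.19% and the CArG motif in 11.4% against 1.63%, on either strand. The TATA box TATAAA, searched on the gene's strand, was in 11.4% against 8.32%. Several promoters can belong to one gene, matches of different motifs may overlap, and a match is a string of letters, not a tested site.

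The 250 bases before the start site are shown for 6 genes that share CAGCTG. These are the 4 with the smallest p between P0 and E17 among members that rose, hold that motif and have a single promoter in the table (Mybpc1, Apobec2, Mylpf and Klhl41), and Acta1 and Ckm. The log2 differences of Acta1 and Ckm between P0 and E17 lay below 0 without passing, and under DES the Ckm signal rose from 514 to 665. Bases are written 5′ to 3′ on the gene's strand, and capitals mark every match to the motifs named above.
Mybpc1, chr10:88605153-88605402, minus strand: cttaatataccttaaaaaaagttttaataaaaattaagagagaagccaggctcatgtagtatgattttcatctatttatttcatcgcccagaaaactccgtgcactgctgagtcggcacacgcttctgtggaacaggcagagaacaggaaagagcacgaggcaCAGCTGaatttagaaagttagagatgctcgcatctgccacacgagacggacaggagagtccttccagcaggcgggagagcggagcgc
Apobec2, chr17:48432729-48432978, minus strand: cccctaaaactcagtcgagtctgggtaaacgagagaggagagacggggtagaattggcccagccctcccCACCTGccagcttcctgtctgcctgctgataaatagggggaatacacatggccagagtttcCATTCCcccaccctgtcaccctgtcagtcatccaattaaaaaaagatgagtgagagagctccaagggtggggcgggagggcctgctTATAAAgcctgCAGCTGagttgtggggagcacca
Mylpf, chr7:127211358-127211607, plus strand: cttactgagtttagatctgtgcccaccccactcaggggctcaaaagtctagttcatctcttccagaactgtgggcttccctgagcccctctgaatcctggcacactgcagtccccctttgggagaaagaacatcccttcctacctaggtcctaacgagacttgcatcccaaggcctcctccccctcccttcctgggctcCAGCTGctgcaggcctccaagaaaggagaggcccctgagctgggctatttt
Klhl41, chr2:69669870-69670119, plus strand: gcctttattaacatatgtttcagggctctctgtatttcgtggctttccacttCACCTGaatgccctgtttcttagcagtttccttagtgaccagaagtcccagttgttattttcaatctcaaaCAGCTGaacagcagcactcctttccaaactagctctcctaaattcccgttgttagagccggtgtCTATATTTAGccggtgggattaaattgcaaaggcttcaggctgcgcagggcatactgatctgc
Acta1, chr8:123894776-123895025, minus strand: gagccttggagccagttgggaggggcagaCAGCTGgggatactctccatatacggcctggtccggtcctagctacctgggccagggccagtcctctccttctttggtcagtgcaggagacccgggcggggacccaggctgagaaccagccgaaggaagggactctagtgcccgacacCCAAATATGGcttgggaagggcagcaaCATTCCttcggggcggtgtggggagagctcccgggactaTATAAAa
Ckm, chr7:19410844-19411093, plus strand: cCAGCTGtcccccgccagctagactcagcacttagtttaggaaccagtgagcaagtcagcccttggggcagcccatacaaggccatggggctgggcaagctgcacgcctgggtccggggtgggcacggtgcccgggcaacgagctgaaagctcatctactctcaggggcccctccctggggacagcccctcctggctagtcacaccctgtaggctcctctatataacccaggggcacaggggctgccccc
The first base of CAGCTG lay 23 bases before the start site in Apobec2, 51 in Mylpf, 87 in Mybpc1, 127 in Klhl41, 221 in Acta1 and 249 in Ckm. Klhl41 also held the MEF2 motif, 63 bases before the start, and Acta1 the CArG motif, 73 bases before it. All 6 were chosen for holding CAGCTG, so its presence both in genes that rose with age and in genes that did not follows from that choice.

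One array stood apart in these genes. Of the 36 tested, 26 had their lowest signal on BPA E17, where 12.1% of all tested genes did, and 2 (Acta1 and Ckm) had their highest there, against 8.74% of all tested genes. At the other end, 22 had their highest signal on DES P0, against 8.15% of all tested genes. Taking each gene relative to its own mean, the median over the 36 was -1.24 log2 units on BPA E17, -0.24 on control E17 and on DES E17, 0.32 and 0.20 on the E18 arrays of control and DES, and 0.48 and 0.50 on their P0 arrays. The BPA E18 and BPA P0 arrays stood at -0.02 and 0.14. Across the 9 arrays 22 of the 36 genes had a Pearson r above 0.9 with the median of the other members, and Acta1, Ckm, Pvalb and Myom1 had an r below 0. The arrays share ages and agents, so r describes likeness and carries no p.

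**Figure D1:**
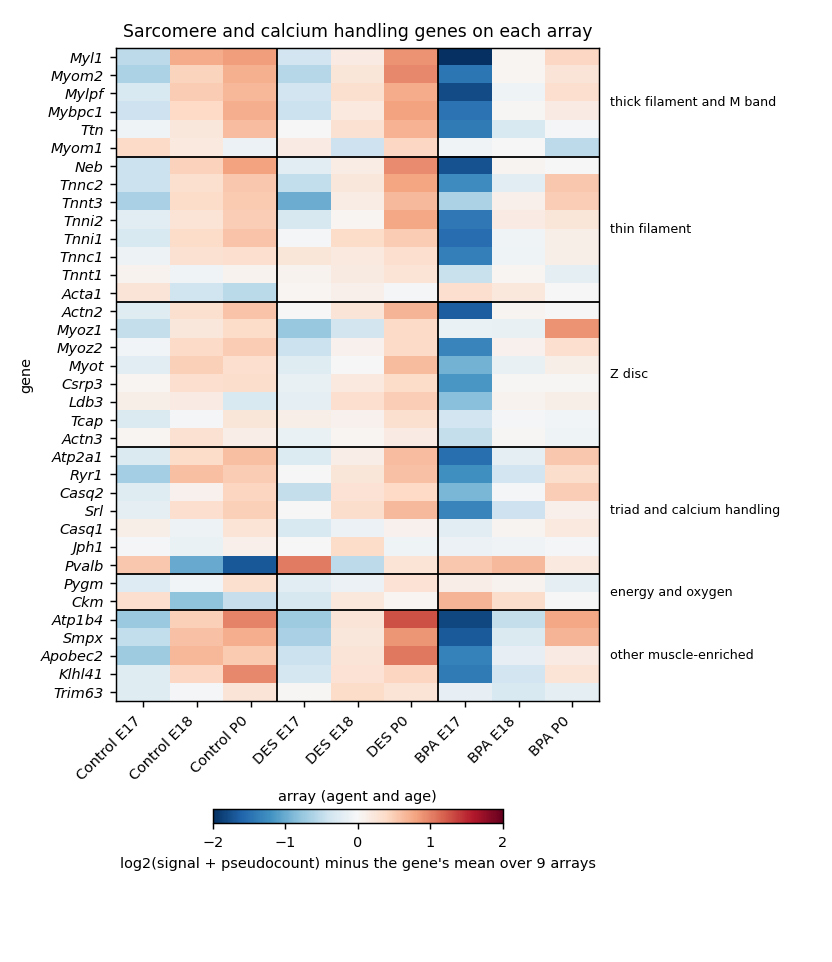
Log2(signal + pseudocount) minus the gene's mean over the 9 arrays, for the 36 tested genes (rows, grouped by role) on each array (columns, named by agent and age). The BPA E17 column is the lowest for 26 of the 36 genes, and Acta1 and Ckm have their highest signal there.

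The first question was how these genes changed with age. Between E17 and P0, 18 of the 36 rose and 0 fell (limma, adjusted p under 0.05), where 0.463% and 0.157% of all tested genes did. The symbols were listed with earlier results of these arrays known, so this count is no independent evidence of a direction. The median difference over the 36 was 0.99 log2 units, against 0.00 over all tested genes, and 32 of the 36 lay above 0, as did 50.3% of all tested genes. On 20 of them all 3 P0 arrays were above all 3 E17 arrays (11% of all tested genes), and on 2, Acta1 and Pvalb, all 3 were below (9.51%). Without an adjustment of p, 26 were higher and the same 2 lower at p under 0.05, beside 9.42% and 9.78% of all tested genes.

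The count of 18 depended on single arrays, while the median difference lay between 0.67 and 1.06 in each of 23 alternatives. The number passing was 8 without the BPA E17 array (17 of all tested genes), 5 without BPA P0 (7) and 5 without control E17 (6). It was 6 without control P0 (8), 11 without control E18 (22) and 0 without BPA P0 and DES E17 both (1). Calls over all tested genes fell as well in these settings, from 83 with all arrays. Without DES P0 both counts rose instead, to 21 members and to many times the 83 calls over all tested genes. Within each agent, where 1 array stands for each age, the median difference was 0.69 in control, 0.68 in DES and 1.41 in BPA. The P0 signal was at least 2-fold the E17 signal for 10 of the 36 in control (1.58% of all tested genes), 12 in DES (0.716%) and 24 in BPA (2.13%). Tnnt3 passed in 22 of 23 alternative settings, Atp1b4 in 21 of 22, Tnnc2 in 21 of 23 and Myom2 and Smpx in 20 of 23, while Myoz1 passed in 5 of 23.

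Among thick filament and M band genes, 5 of the 6 tested rose. Signals are given below in the order E17, E18, P0. Myl1, an essential light chain of fast myosin, read 1218, 2932 and 3152 on the control arrays, 1350.5, 1964 and 3269 on the DES arrays and 382, 1799.9 and 2349 on the BPA arrays. It was lowest at E17 within each agent, and no E17 signal reached that of any E18 or P0 array. Myl1 rose by 1.75 ± 0.25 log2 units between E17 and P0 (model SE, n = 3 arrays per age; limma adjusted p = 0.0241). Mylpf, the regulatory light chain of fast myosin, had signals of 1298, 2281 and 2550.5 in control, 1231, 2007 and 2689 under DES and 459, 1515 and 2018 under BPA. Its order over age was the same in all agents, without overlap between E17 and later ages, and it rose by 1.41 ± 0.19 (limma adjusted p = 0.0184).

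Myom2, an M band protein that ties thick filaments together, gave 104, 227 and 275 in the controls, 110.0, 197 and 329 after DES and 57.2, 171 and 198 after BPA. All E17 signals lay under all later ones, and it rose by 1.53 ± 0.16 (limma adjusted p = 0.0053). Mybpc1, the slow form of myosin binding protein C, read 156, 279 and 350.0 on the control arrays, 155, 242 and 373 on the DES arrays and 72.1, 214 and 236 on the BPA arrays. It was likewise free of overlap and rose by 1.34 ± 0.17 (limma adjusted p = 0.015). Ttn (titin, the spring between Z disc and M band) had signals of 593, 737 and 975 in control, 632, 778 and 1026 under DES and 234, 510.2 and 623 under BPA. Its BPA P0 signal lay inside the range of the E17 arrays, and it rose by 0.93 ± 0.15 (limma adjusted p = 0.0308).

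Myom1, the relative of Myom2, was the exception in that group. It read 409, 359.9 and 286 on the control arrays, 350.1, 233 and 417 on the DES arrays and 299, 309.6 and 215 on the BPA arrays. E17 and P0 overlapped, with no common order of ages, and the log2 difference was -0.24 ± 0.21 (limma adjusted p = 0.572). Myom2 gained on Myom1 by 1.85, 1.28 and 2.16 log2 units in control, DES and BPA, a difference between relatives that was not tested. Mybpc2, the fast form of myosin binding protein C, was below the filter and read 1.86 to 30.7.

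Of the 8 thin filament genes, 5 rose. Tnnt3, the fast troponin T, which fixes the troponin complex to tropomyosin, had signals of 229, 469 and 522 in control, 179, 401 and 574 under DES and 233, 392 and 513 under BPA. The agents stayed close together at each age, and the BPA E17 array was no lower than the other E17 arrays, unlike in most of the set. Tnnt3 rose by 1.31 ± 0.13 (limma adjusted p = 0.00405), from 214 ± 29.8 to 536 ± 33.2 (SD, n = 3 arrays). Tnnc2, the calcium-binding troponin C of fast fibres, read 863, 1452 and 1700.1 on the control arrays, 828, 1361 and 2011 on the DES arrays and 481, 1002 and 1688 on the BPA arrays. The 3 ages did not overlap, and it rose by 1.35 ± 0.13 (limma adjusted p = 0.00405). Neb (nebulin, which runs along the thin filament) gave 147, 276 and 353 in the controls, 169, 222 and 389 after DES and 55.5, 208 and 197 after BPA. It was lowest on BPA E17 and highest on DES P0, and it rose by 1.38 ± 0.22 (limma adjusted p = 0.0285).

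Both inhibitory troponins passed. Tnni2, the fast form, read 283, 403 and 469 on the control arrays, 264, 342 and 573 on the DES arrays and 119.9, 374 and 394 on the BPA arrays, and rose by 1.16 ± 0.21 (limma adjusted p = 0.0448). Tnni1, the slow form, had signals of 588, 939 and 1086 in control, 720.1, 939.7 and 1039 under DES and 250.5, 691 and 793 under BPA, and rose by 1.02 ± 0.19 (limma adjusted p = 0.0448). For both, on the probe sets used, BPA E17 was the lowest array by a wide margin and the P0 arrays lay above the E17 arrays. The other Tnni2 probe set above the filter read 106, 112 and 112 at E17 in control, DES and BPA. On that probe set BPA E17 was not the lowest array, and the log2 difference between P0 and E17 was 1.65. The fast form gained on the slow one by -0.16, 0.58 and 0.03 log2 units in control, DES and BPA, with no common direction.

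Slow troponin T and slow troponin C did not pass. Tnnt1, the slow troponin T, read 992, 899 and 996 on the control arrays, 989, 1074 and 1139 on the DES arrays and 691, 968 and 834 on the BPA arrays, with E17 and P0 overlapping and a log2 difference of 0.16 ± 0.11 (limma adjusted p = 0.47). Tnnc1, the troponin C of slow fibres and heart, gave 938, 1238 and 1269.8 in the controls, 1187, 1146 and 1274 after DES and 387, 947 and 1092 after BPA, between 938 and 1274 outside BPA E17, and its log2 difference was 0.67 ± 0.22 (limma adjusted p = 0.153). In these families the fast form gained on the slow one in each agent: by 1.17, 1.45 and 0.85 log2 units in control, DES and BPA for Tnnt3 over Tnnt1, and by 0.54, 1.17 and 0.32 for Tnnc2 over Tnnc1. These gains were not tested.

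Acta1, skeletal muscle actin, ran against the other thin filament genes. It read 7366, 4670.4 and 4216 on the control arrays, 6334, 6624 and 6056 on the DES arrays and 7771, 7128 and 6139.6 on the BPA arrays. All 3 P0 arrays were below all 3 E17 arrays, with a log2 difference of -0.40 ± 0.12 that did not pass (limma adjusted p = 0.132).

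At the Z disc, 1 of 8 tested genes passed. Myoz1, a calcineurin-binding protein of fast fibres, read 106, 175 and 194 on the control arrays, 85.9, 114 and 195 on the DES arrays and 135, 134 and 283 on the BPA arrays. All P0 signals were above all E17 signals, and BPA P0 was the highest. Myoz1 rose by 1.01 ± 0.18 (limma adjusted p = 0.042). Myoz2, its relative of slow muscle and heart, had signals of 128, 175 and 191 in control, 96.9, 142 and 175 under DES and 50.1, 142 and 169 under BPA, with the same log2 difference and a larger error, 1.01 ± 0.21 (limma adjusted p = 0.0722). Myoz1 gained on Myoz2 by 0.30 and 0.32 log2 units in control and DES and by -0.62 in BPA.

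The alpha-actinins crosslink actin at the Z disc, and neither passed. Actn2, the form of heart and all skeletal fibres, read 315, 470.1 and 559.6 on the control arrays, 376, 449.8 and 599 on the DES arrays and 115, 387 and 375 on the BPA arrays, with a log2 difference of 1.05 ± 0.22 (limma adjusted p = 0.0738). Actn3, the form of fast fibres, gave 181, 218 and 192 in the controls, 159.6, 180.0 and 198 after DES and 125, 179.8 and 166 after BPA, a narrow range with a log2 difference of 0.26 ± 0.13 (limma adjusted p = 0.322). Relative to Actn2 the log2 signal of Actn3 shifted by -0.73, -0.36 and -1.26 in control, DES and BPA, which was not tested.

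The remaining Z disc genes did not pass. Myot (myotilin, an actinin-binding protein) read 58.4 to 186, with a log2 difference of 0.84 ± 0.18 (limma adjusted p = 0.0738). Csrp3, a LIM protein of heart and slow muscle, read 87.4 to 263, with 0.67 ± 0.18 (limma adjusted p = 0.11). Tcap, the cap of titin, read 91.0 to 152, with 0.36 ± 0.15 (limma adjusted p = 0.243). All 3 were lowest on BPA E17. Ldb3, a PDZ and LIM protein that binds actinin, read 211, 219 and 157 on the control arrays, 171, 248 and 276 on the DES arrays and 106, 205 and 210.2 on the BPA arrays, with no common order of ages and a log2 difference of 0.40 ± 0.22 (limma adjusted p = 0.355). Its other probe sets above the filter had 1.17 and 0.11. Xirp1, an actin-binding repeat protein below the filter, read 4.85 to 42.6.

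Of the 7 tested genes of calcium handling, 3 rose. Casq2, the calsequestrin of heart and slow fibres, read 352, 440.1 and 560.3 on the control arrays, 296, 512 and 548 on the DES arrays and 217, 404 and 584 on the BPA arrays. The 3 ages did not overlap, and it rose by 0.98 ± 0.15 (limma adjusted p = 0.0267). Its fast relative Casq1 had signals of 203, 174 and 229 in control, 151, 172 and 199 under DES and 161, 194 and 216 under BPA, with overlapping ages and a log2 difference of 0.32 ± 0.13 (limma adjusted p = 0.232). Relative to Casq2 the log2 signal of Casq1 shifted by -0.66 ± 0.29 (SD over 3 agents), downward in each agent, which was not tested.

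Atp2a1, the SERCA pump of fast fibres, read 288, 455 and 538 on the control arrays, 289.9, 387 and 545 on the DES arrays and 119.9, 310.2 and 516 on the BPA arrays. At E17 BPA lay far below control and DES, which were close to each other (233 ± 97.6, SD, n = 3 arrays). At P0 all agents were close (533 ± 15.2), and Atp2a1 rose by 1.28 ± 0.20 (limma adjusted p = 0.0285). Srl (sarcalumenin, a calcium-binding protein of the reticulum) gave 403, 583 and 643 in the controls, 465, 594 and 732 after DES and 183, 347 and 498 after BPA. BPA was lowest at each age, and Srl rose by 0.91 ± 0.15 (limma adjusted p = 0.0298).

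Ryr1, the calcium release channel of skeletal muscle, read 53.8, 139 and 129 on the control arrays, 89.1, 107 and 138 on the DES arrays and 35.4, 68.0 and 117 on the BPA arrays. All P0 arrays exceeded all E17 arrays, but the log2 difference of 1.12 ± 0.24 did not pass (limma adjusted p = 0.0719). Jph1, which holds tubule and reticulum together, read 94.9 to 136, with a log2 difference of 0.04 ± 0.18 (limma adjusted p = 0.929). Pvalb (parvalbumin, a calcium buffer of adult fast fibres) was dim and had signals of 64.6, 18.5 and 9.46 in control, 93.7, 28.3 and 53.2 under DES and 64.9, 70.5 and 50.3 under BPA. In control and DES it was highest at E17, with a log2 difference of -1.11 ± 0.40. Its mean signal was 30.9 in control, 58.4 under DES and 61.9 under BPA, and 74.4 at E17, 39.1 at E18 and 37.6 at P0, where the filter stood at 41.2. It therefore passed the filter only through the groups in which it was high, and its differences support nothing, although the counts over the 36 include it. Below the filter, Cacna1s, the voltage sensor, read 6.34 to 74.9 and Trdn (triadin, a partner of the release channel) 16.6 to 46.9.

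Neither tested gene of energy supply passed. Pygm, muscle glycogen phosphorylase, read 111 to 169.5, with a log2 difference of 0.26 ± 0.19 (limma adjusted p = 0.487). Ckm, muscle creatine kinase, read 817, 367 and 467 on the control arrays, 514, 745 and 665 on the DES arrays and 1039.8, 823 and 640.3 on the BPA arrays. Its highest signal was on BPA E17, the array where most of the set was lowest, and its log2 difference was -0.38 ± 0.25 (limma adjusted p = 0.439). Myoglobin (Mb), the oxygen store of muscle, was below the filter and read 11.2 to 49.1.

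Of the 5 other muscle-enriched genes, 4 rose, and they included the largest difference of all 36. Atp1b4, a muscle protein of the sodium pump beta family, read 67.4, 164 and 238 on the control arrays, 69.5, 140.2 and 289 on the DES arrays and 29.0, 81.9 and 203 on the BPA arrays. The order E17, E18, P0 held within each agent, and Atp1b4 rose 4.29-fold, by 2.10 ± 0.19 (limma adjusted p = 0.00368). Smpx, a small protein of the muscle cell cortex, had signals of 162, 346 and 382 in control, 145, 269 and 426 under DES and 68.2, 188 and 371 under BPA, and rose by 1.69 ± 0.19 (limma adjusted p = 0.00962). The agents were spread widest, in relative terms, at E17.

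Apobec2, a muscle-enriched relative of the cytidine deaminases, read 82.9, 222 and 202 on the control arrays, 101, 168 and 293 on the DES arrays and 51.0, 123 and 157 on the BPA arrays, and rose by 1.41 ± 0.18 (limma adjusted p = 0.015). Klhl41, a kelch protein that stabilises the sarcomere, gave 165, 261 and 386 in the controls, 151, 240.0 and 266 after DES and 69.7, 149 and 237 after BPA, and rose by 1.23 ± 0.17 (limma adjusted p = 0.0184). For both, no E17 signal reached that of any P0 array. Trim63, a ubiquitin ligase of muscle wasting, had signals of 102, 120.2 and 146 in control, 124, 158 and 148 under DES and 109, 97.5 and 107 under BPA, with overlapping ages and a log2 difference of 0.24 ± 0.16 (limma adjusted p = 0.444).

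**Figure D2:**
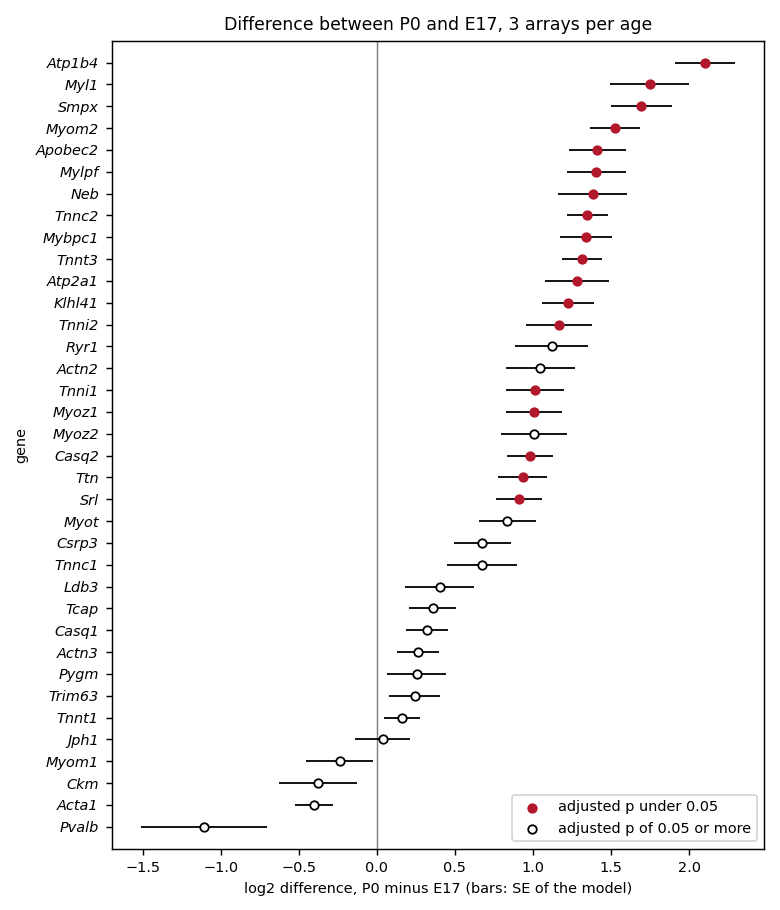
Log2 difference between P0 and E17 for each of the 36 tested genes, with the SE of the model over 3 arrays per age. Filled points mark the 18 genes with an adjusted p under 0.05, from Srl at 0.91 to Atp1b4 at 2.10, and Myom1, Ckm, Acta1 and Pvalb lie below 0.

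Divided at E18, the median difference was 0.64 log2 units from E17 to E18 and 0.28 from E18 to P0, against 0.01 and -0.01 over all tested genes. The first step was the larger one in control (0.51 and 0.18) and BPA (0.98 and 0.20), while the steps in DES had medians of 0.37 and 0.40. By limma 0 of the 36, like 0% of all tested genes, passed in either step. At an unadjusted p under 0.05, 25 were higher and 1 (Pvalb) lower from E17 to E18, beside 1.89% and 1.31% of all tested genes. From E18 to P0 there were 9 higher and 0 lower, beside 6.04% and 8.27%. All 3 E18 arrays were above all 3 E17 arrays for 16 of the 36 (6.16% of all tested genes), and all 3 P0 arrays above all 3 E18 arrays for 8 (7.36%).

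The smallest adjusted p from E17 to E18 was that of Tnnt3, at 0.97 ± 0.13 (limma adjusted p = 0.126), followed by Myom2 at 1.13 ± 0.16 (limma adjusted p = 0.134). From E18 to P0 it was that of Atp1b4, at 0.93 ± 0.19 (limma adjusted p = 0.179), followed by Tnnc2 at 0.51 ± 0.13 (limma adjusted p = 0.204). In 16 of the 36 genes the order E17, E18, P0 held within all 3 agents, against 2.1% of all tested genes. They included Myl1, Mylpf, Ttn, both inhibitory troponins, Casq2 and Atp2a1.

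The second question was the effect of BPA. By limma 0 of the 36 passed against control, where 0.0149% of all tested genes did, and the smallest adjusted p was 0.254 (Ttn). Of the 36, 31 lay below control, as did 47.7% of all tested genes, and their median was -0.54 log2 units against 0.01 over all tested genes. At an unadjusted p under 0.05, 22 were lower and 3 higher, beside 3.88% and 4.41% of all tested genes. In 23 genes the BPA array was below the control array at each of the 3 ages (14.7% of all tested genes), and in 3, Acta1, Ckm and Pvalb, it was above at each (16%). With 1 array left out, 1 member passed without control E17, beside 22 of all tested genes, and 0 members in the other cases. On the unscaled signals 13 passed, beside 62 of all tested genes (0.463%), with the median over all tested genes at -0.24.

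The difference from control was widest at E17. The median of BPA minus control was -0.82 on the E17 arrays, -0.34 on those of E18 and -0.24 on those of P0. At E17, 16 of the 36 were at least 2-fold lower on the BPA array (0.724% of all tested genes), and 0 of the 36 were so at E18 (0.433%) or at P0 (1.15%). Without the BPA E17 array the median was -0.34, 31 of the 35 genes then tested lay below 0, and 15 were lower at an unadjusted p under 0.05 (3.53% of all tested genes).

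Among the single genes, Ttn read 593, 737 and 975 on the control arrays against 234, 510.2 and 623 on the BPA arrays. It was lower with BPA at each age, with a log2 difference of -0.83 ± 0.15 (limma adjusted p = 0.254). Its 4 other probe sets above the filter lay below 0 as well, from -0.90 to -0.02. Klhl41 read 165, 261 and 386 against 69.7, 149 and 237, a log2 difference of -0.89 ± 0.17 (limma adjusted p = 0.254). Srl stood at -0.74 ± 0.15 (limma adjusted p = 0.264), Mylpf at -0.81 ± 0.19 (limma adjusted p = 0.334), Mybpc1 at -0.66 ± 0.17 and Atp1b4 at -0.75 ± 0.19. These genes were lower at each age, and their ranges over age overlapped with those of the controls.

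By role, the median difference between BPA and control was -0.73 for the 6 thick filament and M band genes, -0.49 for the 8 thin filament genes, -0.43 for the 8 Z disc genes, -0.25 for the 7 genes of calcium handling, 0.33 for the 2 of energy supply and -0.70 for the 5 other muscle-enriched genes. Within the troponins, Tnnt3 differed at E17 from the probe sets used for its partners. It read 229 in control and 233 under BPA there, where Tnnc2 read 863 and 481 and Tnni2 283 and 120. Over all ages the log2 difference of Tnnt3 was -0.09 ± 0.13 (limma adjusted p = 0.904). The other Tnni2 probe set above the filter read 106 in control and 112 under BPA at E17, so the contrast with Tnni2 depends on the probe set. Higher with BPA at each of the 3 ages, without passing, were Acta1 at 0.41 ± 0.12 (limma adjusted p = 0.395) and Ckm at 0.65 ± 0.25 (limma adjusted p = 0.53). Pvalb, at 1.19 ± 0.40, was also higher at each age, but the filter and this difference are not independent, as stated above.

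A slope over age tested whether an agent's distance from control varied between the ages. For BPA, 31 of the 36 slopes were above 0, as for 54.4% of all tested genes, with a median of 0.25 log2 units per age step. By limma 0 of the 36 passed (0.0597% of all tested genes), and 15 were higher and 1 (Pygm) lower at an unadjusted p under 0.05 (5.23% and 4.46%). The smallest adjusted p was that of Mylpf, at 0.58 ± 0.13 per step (limma adjusted p = 0.257), followed by Ldb3 at 0.68 ± 0.16 (limma adjusted p = 0.273). Leaving out 1 array raised the calls over all tested genes from 8 to 84 without DES E17, 122 without DES E18 and 117 without DES P0. They became 98 without BPA E18 and 27 without BPA P0. In that order, 2, 3, 3, 3 and 2 members were among the calls. Without BPA E17 there were 75 calls and without control E18 12, with 0 members among them. Without control P0 the calls fell to 3 and without control E17 to 0, again with 0 members.

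**Figure D3:**
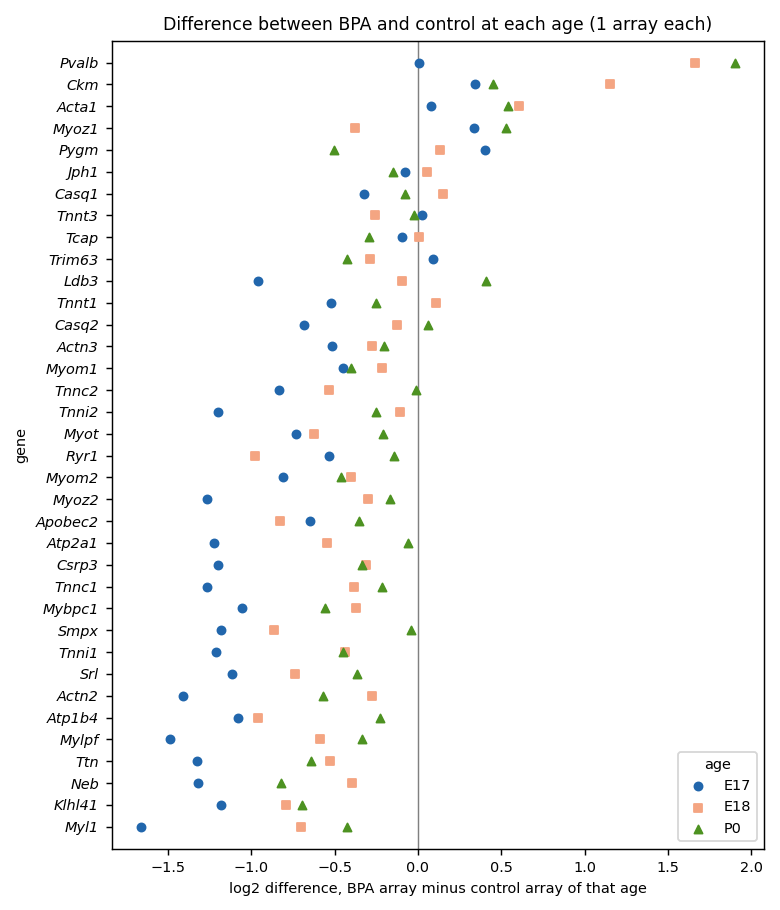
Log2 difference between the BPA array and the control array of the same age for each of the 36 tested genes, with 1 array of each agent per age. The E17 points of most genes lie farthest below 0 (median -0.82), and Acta1, Ckm and Pvalb lie above 0 at each age.

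Under DES the median of the set was 0.02 log2 units from control, as it was over all tested genes. By limma 0 of 36 passed (0% of all tested genes), and 19 lay above control, beside 56.6% of all tested genes. At an unadjusted p under 0.05, 1 gene was higher and 0 were lower, beside 4.4% and 1.96% of all tested genes. That gene was Pvalb, at 0.99 ± 0.40, whose place among the tested genes rests on the exposed arrays. By age, the DES median stood at -0.01 (E17), -0.13 (E18) and 0.09 (P0). Ttn, Tcap, Trim63, Pvalb and Srl were above control at each of the 3 ages (5 genes, with 17.4% of all tested genes), and Myoz2, Casq1 and Klhl41 were below at each (3 genes, with 10.7%).

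After Pvalb, the smallest p under DES belonged to Acta1 at 0.27 ± 0.12 (limma adjusted p = 0.776), Myoz1 at -0.29 ± 0.18 (limma adjusted p = 0.824), Casq1 at -0.21 ± 0.13, Klhl41 at -0.26 ± 0.17 and Trim63 at 0.22 ± 0.16. As a slope over age, 0 of the 36 passed for DES (0% of all tested genes), and 3 (Acta1, Ldb3 and Ckm) were higher and 0 lower at an unadjusted p under 0.05 (5.34% and 3.6%). Acta1 had the smallest adjusted p, at 0.37 ± 0.10 (limma adjusted p = 0.413). BPA and DES were given at different doses and set against the same control arrays, so their values stand side by side only. Ttn had -0.83 ± 0.15 with BPA and 0.08 ± 0.15 with DES, Mylpf -0.81 ± 0.19 and -0.06 ± 0.19, and Acta1 0.41 ± 0.12 and 0.27 ± 0.12.

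Related muscle genes outside the set were taken from lists chosen with earlier results of these arrays known. Between E17 and P0, 22 tested genes of other sarcomere and excitation-contraction proteins had a median of 0.65 log2 units. The median over all tested genes was 0.00. Of the 22, 6 rose and 0 fell, beside 0.463% and 0.157% of all tested genes. They included Pgam2, the muscle phosphoglycerate mutase, at 1.18 ± 0.15, Sln (sarcolipin, a SERCA inhibitor) at 1.08 ± 0.18, Cav3 (muscle caveolin) at 0.84 ± 0.14 and Cacng1, a subunit of the voltage sensor, at 1.31 ± 0.23. With BPA 15 of the 22 lay below control, beside 47.7% of all tested genes, with 0 called and a median of -0.26.

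Of the 4 tested skeletal myosin heavy chains, 2 rose with age, beside 0.463% of all tested genes. Myh8, the perinatal chain, read 258, 896 and 1024 on the control arrays, 268, 728 and 1291 on the DES arrays and 110.0, 344 and 889 on the BPA arrays, and rose by 2.39 ± 0.19 (limma adjusted p = 0.00203). Myh3, the embryonic chain, had signals of 1465, 2589.6 and 2466 in control, 1837, 2504 and 2804 under DES and 653, 2029.7 and 2047 under BPA, and rose by 1.00 ± 0.19 (limma adjusted p = 0.0492). With BPA all 4 lay below control (median -0.57), with 0 called. The 8 tested myogenic regulators all lay above 0 from E17 to P0 (median 0.45) and below control with BPA (median -0.45), with 0 called in either comparison. Myog (myogenin, which drives muscle differentiation) read 183 on BPA E17 and 359 to 581 elsewhere. Of 5 tested genes of the acetylcholine receptor and synapse, 5 lay above 0 with age and 4 below control with BPA, again with 0 called. Beside these counts, 50.3% of all tested genes lay above 0 from E17 to P0 and 47.7% below control with BPA.

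By likeness to the median course of the set, the 10 nearest genes outside it were Hjv, Itgb1bp2, Myh3, Srpk3, Tceal7, Mybph, Cav3, Sntb1, Palmd and Chil1, with Pearson r from 0.96 to 0.99 over the 9 arrays. Hjv read 68.5 on BPA E17 and 138 to 308 elsewhere. No p is given, for the reason stated above.

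Markers of smooth muscle ran in the opposite direction. All 12 listed genes were tested, their summed signal was 39108 to 48386 on the E17 arrays and 29946 to 42529 on the P0 arrays, and none was at or near 0. Of all tested genes, 50.3% lay above 0 from E17 to P0, 47.7% below control with BPA and 56.6% above control with DES. All 12 smooth muscle genes lay below 0 from E17 to P0 (median -0.48). They lay above control with BPA (median 0.66) and with DES (median 0.26), with 0 called. Relative to the mean over arrays, their median was highest on BPA E17 (0.51), where the sarcomere set was lowest, and lowest on control E18 (-0.55). Actg2, enteric smooth muscle actin, read 7163, 3199 and 2955 on the control arrays, 5919.6, 5919.6 and 4766 on the DES arrays and 7532, 6569.7 and 7001 on the BPA arrays.

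Acta1 and Ckm kept the course of the smooth muscle genes. Over the 9 arrays their Pearson r with the smooth muscle median was 0.96 and 0.92, and with the median of the other sarcomere genes -0.69 and -0.65. For Mylpf the values were -0.76 and 1.00. Whether transcripts of other actins contributed to the Acta1 signal was not tested, and neither was the part of the smooth muscle share in the differences above.

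**Figure D4:**
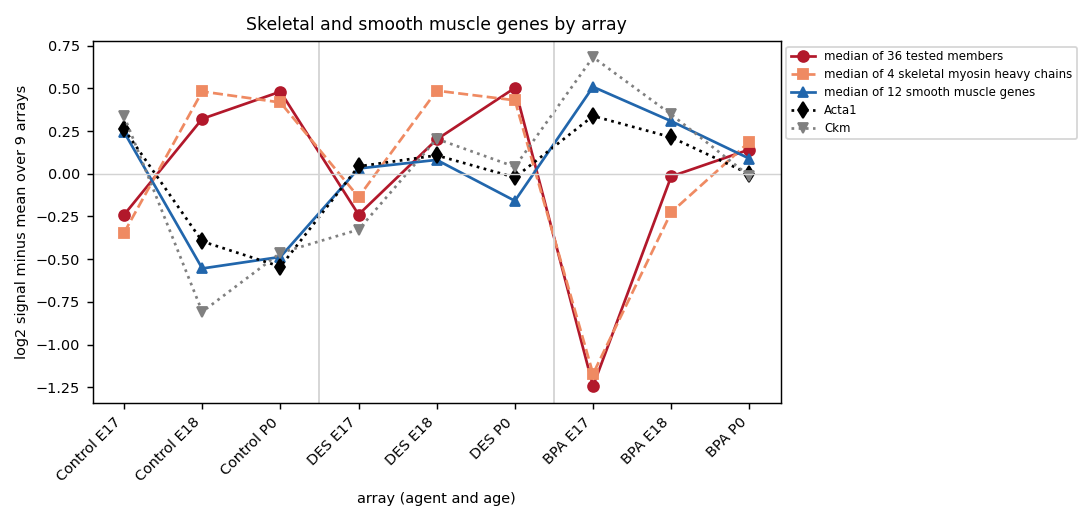
Log2 signal minus the mean over 9 arrays, for the median of the 36 tested sarcomere and calcium handling genes, the medians of 4 skeletal myosin heavy chains and of 12 smooth muscle genes, and for Acta1 and Ckm alone, on each array (agent and age). On BPA E17 the sarcomere median is at -1.24 and the smooth muscle median at 0.51, and Acta1 and Ckm lie on the side of the smooth muscle line.

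Other tissues were followed by their markers. Of the 10 listed for heart, 7 were tested. Myl7 and Nppa, the atrial light chain and natriuretic peptide, and Tnni3, the cardiac troponin I, had means below the filter. Tnni3 read 142 on BPA P0 and 19.1 to 46.9 elsewhere. Among the tested genes Mybpc3 read 136 to 224, Nppb 85.1 to 118, and Myh6, Ryr2, Pln and Nkx2-5 25.6 to 120. The summed heart signal was 3248 to 4401 on the E17 arrays and 2140 to 3063 on the P0 arrays. It was mostly that of Tnnt2 (cardiac troponin T, also made in immature skeletal muscle). Tnnt2 read 3297, 1542 and 1522 on the control arrays and 2651, 2831 and 2189 on the DES arrays. On the BPA arrays it read 3712, 3615 and 2366. Like the smooth muscle genes, Tnnt2 lay below 0 from E17 to P0 (-0.68 ± 0.18) and above control with BPA (0.68 ± 0.18), without passing. Which cells gave its signal was not tested. The summed gonad signal was 3655 on BPA P0 and 586 to 695 elsewhere, and the summed epidermis signal was 21340 on BPA P0, 9194 on BPA E18 and 2181 to 3772 elsewhere. Urothelium and sinus genes lay above control with BPA in 8 of 8 (median 0.40, 0 called), with their highest array median, 0.40, on BPA E17, where the sarcomere set was lowest. Cell cycle genes lay lower at P0 than at E17 in 7 of 7 (median -0.29, 0 called). Beside these counts, 47.7% of all tested genes lay below control with BPA and 50.3% above 0 between P0 and E17. The part of these tissues and of cell division in the differences of the sarcomere set was not tested. Without BPA P0 the median between BPA and control was -0.61, with 0 of the 36 called.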

How the data were processed

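Each of 9 arrays held RNA of 1 agent at 1 age. The authors deposited probe set intensities on a linear scale, and MAS5 is named in the submitters' processing notes, with version and scaling target not given in the sources used here. Trimmed means ran from 157 (BPA P0) to 277 (DES E17), so arrays were quantile normalised and values taken as log2(signal + 5.46), where 5.46 is the 10th percentile of all signals. Differences of dim genes are therefore understated. Of the probe sets, 34958 had 1 gene symbol in the platform annotation, 932 several and 9211 none. Genes with a mean at or above the 40th percentile (5.54) were tested. Age and agent entered limma 3.58.1 (R 4.3.3) as factors over 9 arrays and 13400 genes, with eBayes and an intensity trend (4 residual and 6.18 prior degrees of freedom). Slopes left 2 residual degrees of freedom. P-values were adjusted by Benjamini-Hochberg over all tested genes, at a threshold of 0.05. The script was tested on simulated data. No arrays held identical values (0 of 36 pairs). Nothing says that arrays came from separate litters, so a p-value speaks only of the spread among these 9 arrays, whose number limits the precision.

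The members and all lists were chosen with earlier results of these data known. Any member could be named. Signals on every array are given for the 12 members with the smallest p among those that rose between E17 and P0, for the 6 with the smallest p in each comparison of agents, for pairs of relatives and for members that ran against the majority, with examples from the lists. Alternatives changed the scaling, pseudocount, filter, variance trend, probe set rule, factors and arrays used.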

Additional observations from a re-analysis of the deposited data

How the results depend on the processing

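Single genes were followed over up to 23 alternatives for the 18 that rose with age, Acta1 and Pvalb between P0 and E17, for Ttn, Klhl41, Srl, Mylpf, Mybpc1, Atp1b4, Acta1, Ckm and Pvalb with BPA, and for Pvalb, Acta1, Myoz1, Casq1, Klhl41 and Trim63 with DES, and none of these changed direction. The other genes were not followed singly. Between P0 and E17, 18 members passed (83 genes in all). The count became 5 without a filter (8 in all) and 3 without an intensity trend (6). It was 6 without agent as a factor (27) and 10 with only the 6 arrays compared (20). Without BPA P0 and DES E17 both it was 0 (1). Leaving out 1 array gave 5 to 21 members. The 21 came without DES P0, where calls over all tested genes rose to many times the 83, so it is not comparable with the 18. Alternatives chosen after seeing the data gave 7 without all BPA arrays (10 genes in all) and 5 without BPA E17 and BPA P0 (7). A further one, without BPA E17 and DES P0, gave 12 (191). On the signals as deposited, the all-gene median was -0.29 between P0 and E17 and -0.24 between BPA and control. There 2 members passed from E17 to E18 (8 genes in all) and 13 with BPA (62 in all). Relative to all genes the BPA median was -0.54 with either scaling. For BPA, leaving out 1 array gave 0 to 1 members (0 to 22 genes in all), and for the BPA slope 0 to 3 (0 to 122 in all). The median from E18 to P0 was 0.11 on the signals as deposited and 0.13 to 0.39 with 1 array left out. The DES median was -0.11 without BPA P0 and DES E17 both and -0.13 to 0.12 with 1 array left out, so its sign is not settled. Calls among the members from E18 to P0, for DES and for the DES slope were 0 in each alternative run. The fits of BPA without all BPA arrays, and of slopes with only 6 arrays, with 2 or more arrays left out or without a factor, were not run. Other probe sets above the filter had the sign of the one used in 13 of 13 cases between P0 and E17 and in 12 of 13 for BPA, the exception being one of Ldb3. The cause of each shift was not tested. Dim probe sets, Pvalb among them, lie closest to the background.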
